A study of Mus musculus with 10 samples.

Results

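The nuclear genes for respiratory complexes II to V, the enzymes that carry electrons from succinate to oxygen and make ATP, were examined in hearts of wild-type and PKCz-null mice given angiotensin II or vehicle. The genes were taken by name from the array annotation: every symbol beginning with Sdh, Uqcr, Cox4, Cox5, Cox6, Cox7, Cox8 or Atp5, together with Cyc1, each read by the probe set with the highest mean among those annotated to that symbol alone. This gave 51 of the 18193 genes measured. They comprised 46 subunits (4 of complex II, 9 of complex III, 16 of complex IV and 17 of complex V) and 5 assembly factors, namely Sdhaf1 to Sdhaf4 and Cox7a2l. The subunits encoded in mitochondrial DNA do not fall under the naming rule.

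The mice were males of the SV129 strain, 32 weeks old, and the wild type (WT) and PKCz -/- animals (KO, lacking protein kinase C zeta, an atypical protein kinase C) were littermates. Osmotic minipumps placed under the skin delivered angiotensin II (AngII), which constricts vessels and is used to provoke cardiac hypertrophy, for 14 days at a daily dose of 432 µg/kg. Control animals are labelled as given PBS in the titles and the design text, and as untreated in another label. There were 10 arrays of heart RNA, 1 per sample: 2 of WT PBS (title numbers 3 and 5), 3 of WT AngII (2, 3 and 4), 3 of KO PBS (2, 3 and 4) and 2 of KO AngII (3 and 4). Separate animals are not stated for the arrays of a group, so p-values measure only how these samples vary, and that variation may be technical. The sources used here do not give the cells that lack PKCz or whether heart chambers were separated.

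Complex II, succinate dehydrogenase, is an enzyme of both the tricarboxylic acid cycle and the respiratory chain, and hands electrons to ubiquinone. Complex III passes them from ubiquinol to cytochrome c, complex IV (cytochrome c oxidase) passes them to oxygen, and the proton gradient so built drives the rotary ATP synthase, complex V. The heart depends on this chain for nearly all of its ATP and carries muscle isoforms of several complex IV subunits.

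All values are log2 intensities summarised by the submitters with RMA, which normalizes arrays together, and a difference of 1 is a 2-fold change. Differences come from 1 limma fit over all 10 arrays and 45037 probe sets. Each is given with its standard error (SE), and a probe set was called where its p-value, adjusted by the Benjamini-Hochberg method over all probe sets, was under 0.05. The brightest probe set for Prkcz, the deleted gene, read 6.23 to 6.45 on the 5 WT arrays and 5.70 to 5.87 on the 5 KO arrays, a difference of -0.53 ± 0.09 (adjusted p = 0.126, limma), and its position relative to the deletion was not known here. Cardiomyocyte markers such as Myh6 (14.32 to 14.49), Actc1 and Tnnt2 were near the top of the scale on every array. The 7 fast skeletal muscle markers lay between 4.92 and 7.36 and the 5 atrial ones between 4.87 and 8.73, highest for Nr2f2 and Myl4. WT AngII array 2 stood apart. The mean of 10 fibroblast and matrix markers was 1.999 above its 10-array mean there and between -0.64 and 0.44 elsewhere, with Postn reaching 13.55 against a median of 9.81. Its macrophage markers were 0.99 above the mean and its cardiomyocyte markers -0.13 from it. In whole tissue, fewer cells of a type and less RNA per cell cannot be told apart. A second split crossed the groups. The 24 probe sets for polyadenylated bacterial spike-in transcripts averaged 6.90 to 7.08 on 3 arrays (both of KO AngII, and number 4 of KO PBS), while the remaining 7, every WT array among them, gave 12.86 to 13.33. The same 3 arrays had the smallest differences between 3' and 5' probe sets, a sign of RNA quality and labelling: 0.74 to 0.83 for actin against 0.92 to 1.70, and 0.016 to 0.12 for Gapdh against 0.18 to 0.59. The part of these differences in the results was not tested.

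Most of the respiratory genes were among the brightest on the array. The mean over the 10 arrays was at or above 13 for 30 of the 51, a level that only 213 of all 45037 probe sets reached, and the highest value of any probe set was 14.68. In complex II, Sdha (the flavoprotein that oxidises succinate) averaged 12.74 and Sdhb (the iron-sulfur subunit) 13.57. In complex III, Cyc1 (cytochrome c1) averaged 13.07 and Uqcrfs1 (the Rieske iron-sulfur protein) 13.34. In complex IV, Cox4i1 averaged 14.06 and Cox5a 13.66, and in complex V the catalytic-head subunits Atp5a1 and Atp5b averaged 13.85 and 14.00. The muscle isoforms Cox6a2, Cox7a1 and Cox8b averaged 13.85, 13.05 and 13.66. The isoforms known from other tissues had lower values: Cox4i2, an isoform of lung and of hypoxia, averaged 6.42 (the 54.9th percentile of all probe sets), and the testis isoforms Cox6b2, Cox7b2 and Cox8c averaged 6.95, 4.71 and 8.11 (the 64.5th, 18.7th and 80.5th percentiles). Cox7c, a subunit of every complex IV, averaged 4.58 (the 16.0th percentile), and its other probe set was at 3.81, so that gene was in effect not measured. Probe sets differ in how strongly they hybridise, so these levels do not rank the genes. The bright members varied little: the median SD within groups was 0.068 for the 30 at or above 13 and 0.126 for the other 21, against 0.164 over all probe sets and 0.089 over the 213 bright ones.

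Promoter sequence was read from RefSeq windows of the mouse build GRCm38.p6, running from 250 bases before each gene's start to 50 after it, which were at hand for 39 of the 51 genes. The motif of NRF1, a factor known to drive respiratory genes, was searched on both strands (2 strand matches at 1 place counted once). It was present in 12 of the 39 windows (30.8%) and in 5.19% of the 27025 genes with a window. The ETS core CCGGAAG, which the factor GABP (NRF2) binds, was present in 16 (41.0%) against 9.93%. The ERR motif TCAAGGTCA was in 2 (5.13%, Atp5g3 and Sdhd) against 0.466%, and the YY1 motif in 1 (2.56%, Atp5j) against 0.995%. The 120 bases before the start are shown for 5 of the genes described in detail below, 5' to 3' on the gene's strand, with NRF1 and ETS matches in capitals. They lie on the minus strand at chr13:74350241-74350360 (Sdha), chr9:50603850-50603969 (Sdhd), chr2:174464102-174464221 (Atp5e), chr15:102671048-102671167 (Atp5g2) and chr5:108434400-108434519 (Atp5k).
Sdha: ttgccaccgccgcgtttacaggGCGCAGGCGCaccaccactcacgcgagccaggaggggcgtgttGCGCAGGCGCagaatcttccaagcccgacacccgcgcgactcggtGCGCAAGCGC
Sdhd: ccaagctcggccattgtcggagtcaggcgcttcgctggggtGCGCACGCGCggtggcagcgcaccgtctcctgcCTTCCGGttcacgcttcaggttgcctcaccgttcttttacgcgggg
Atp5e: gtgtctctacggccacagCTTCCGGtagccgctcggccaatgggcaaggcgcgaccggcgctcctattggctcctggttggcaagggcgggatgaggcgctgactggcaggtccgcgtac
Atp5g2: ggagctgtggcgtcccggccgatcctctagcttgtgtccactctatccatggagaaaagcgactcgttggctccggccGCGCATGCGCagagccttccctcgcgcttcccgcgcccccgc
Atp5k: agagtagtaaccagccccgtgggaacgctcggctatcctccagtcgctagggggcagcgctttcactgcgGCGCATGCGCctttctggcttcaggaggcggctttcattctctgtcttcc
Sdha carried 3 NRF1 matches in this stretch, the nearest beginning 10 bases before the start, and Atp5g2 and Atp5k carried 1 each. Sdhd had 1 NRF1 match and, nearer the start, 1 ETS match, both on the strand opposite the gene's. Atp5e had 1 ETS match and no NRF1 match. These are matches of letters only, and binding was not measured.

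In wild-type hearts, most of the genes had lower means with AngII than with PBS, by small amounts that depended on 1 array. The difference was below 0 for 42 of 51 genes with a median of -0.087, where the median of all genes was -0.0045. No respiratory gene was called (limma, 0% of all probe sets called). At an unadjusted p under 0.05, 1 was higher (1.71% of all probe sets) and 2 were lower (3.52%). The 2 lower were 0 without WT AngII 2 (6.22%), WT PBS 3 (3.38%) or WT PBS 5 (1.96%), and 5 without WT AngII 3 (2.93%). With arrays weighted by their spread around the fit, limma called 1 gene, Cox4i2 (0.582% of all probe sets), and WT AngII 4 had a weight of 7.21. Leaving out WT AngII 2 moved the median to -0.028, with 35 of 51 below 0. By complex, the subunit medians were -0.14 for complex II, -0.094 for complex III, -0.025 for complex IV and -0.087 for complex V, and without that array -0.078, -0.073, 0.032 and -0.056. The complex IV medians here and below include Cox7c, in effect not measured, and the low-valued Cox4i2, Cox6b2, Cox7b2 and Cox8c. Those low-valued isoforms had higher means in WT AngII than in WT PBS. Complex IV subunits at or above 13 had median deviations from their own means of -0.19, 0.0031 and -0.0395 on WT AngII 2, 3 and 4. On WT PBS 3 and 5 these were -0.0145 and 0.041. The 9 complex III subunits were all below 0 with and without WT AngII 2.

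**Figure D1:**
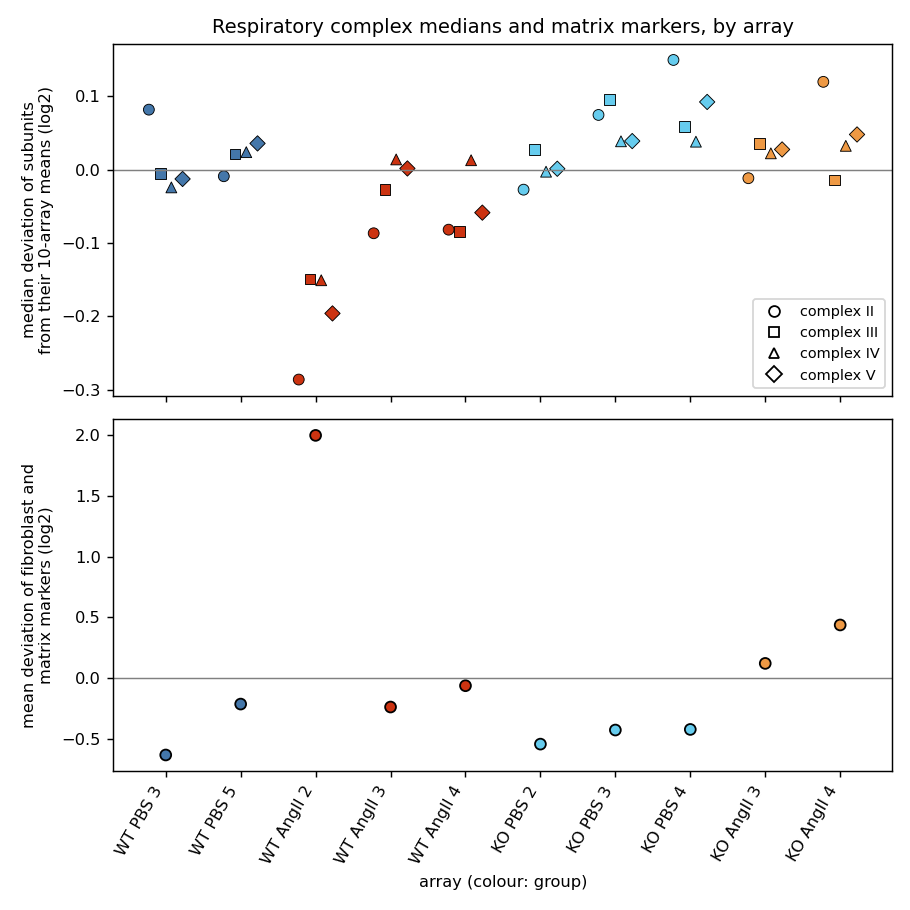
Top, median deviation of the subunits of each complex from their own 10-array means (log2, y axis) on each array (x axis, coloured by group), with complexes II to V as circles, squares, triangles and diamonds. Bottom, mean deviation of the 10 fibroblast and matrix markers (log2) on the same arrays. On WT AngII 2 the 4 complex medians lie between -0.29 and -0.15 and the markers at 1.999, while no complex median on the other 9 arrays is under -0.09.

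WT AngII 2 held the lowest of the 10 values for 29 of the 51 genes, while 23.1% of all probe sets were lowest there. The median deviation of the genes on that array was -0.16, and 46 of them were below their own mean. On the other 9 arrays the median lay between -0.032 (WT AngII 4, lowest array for 10 genes) and 0.066 (KO PBS 4). The matrix markers that were high on this array moved with the result, and their part in it was not tested. The groups did not overlap for 17 genes that were lower with AngII (33.3%, against 11.3% of all probe sets) and for 3 that were higher (Cox4i2, Cox7b2 and Cox8a, 5.88% against 8.4%). Without WT AngII 2 the count of lower genes was again 17, but the share of all probe sets was then 23.3%.

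**Figure D2:**
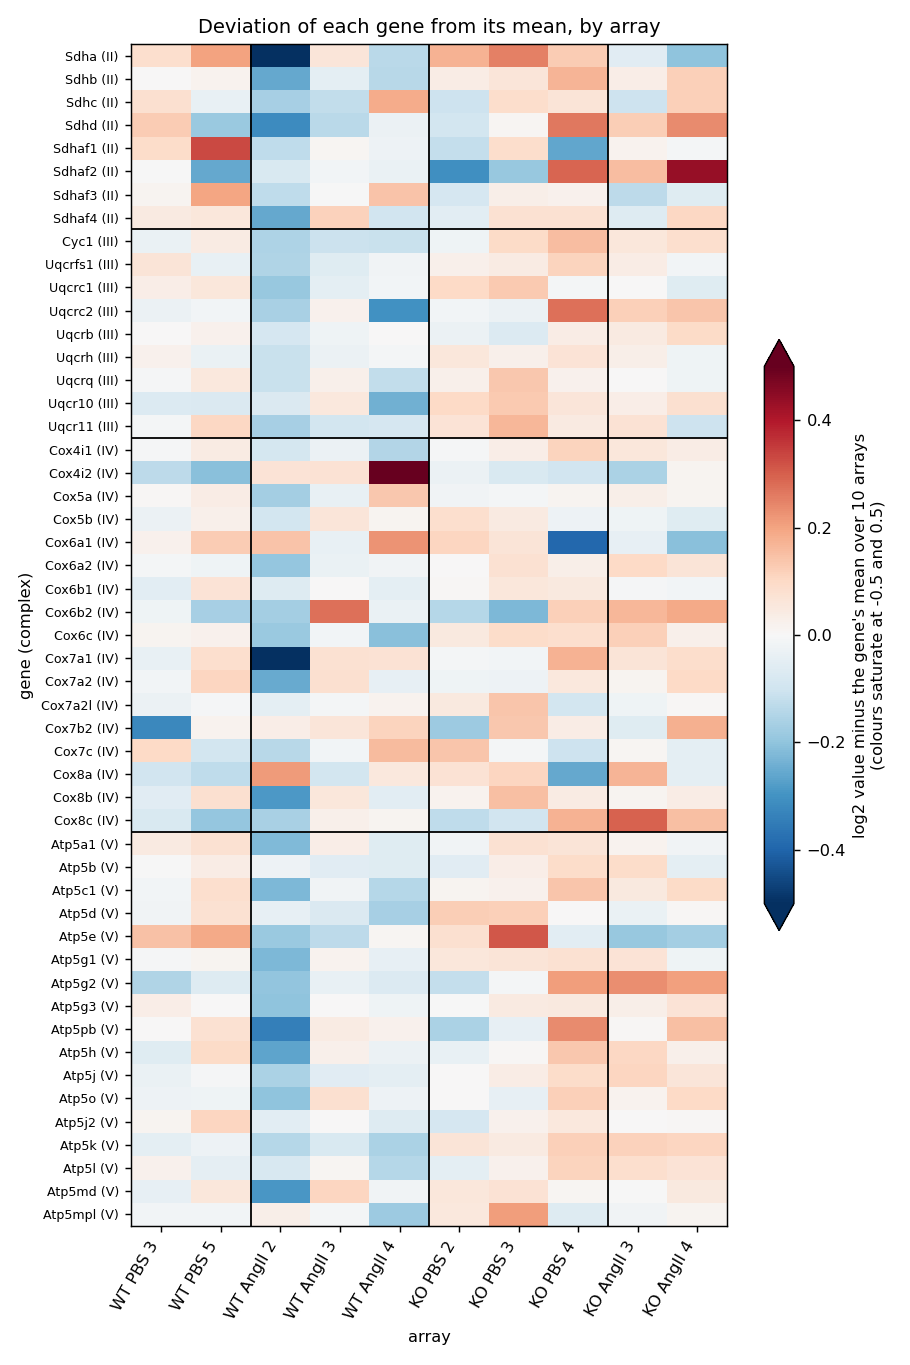
Deviation of each of the 51 genes (rows, ordered by complex) from its own 10-array mean (log2, colour) on each array (columns, vertical lines between the groups). The column of WT AngII 2 is blue for 46 of 51 genes, and Cox4i2 on WT AngII 4 is the deepest red of its row.

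Sdha gave the largest lower value in wild-type hearts. It read 12.83 and 12.95 in WT PBS, 12.24, 12.80 and 12.61 in WT AngII, 12.92, 12.998 and 12.87 in KO PBS, and 12.69 and 12.54 in KO AngII. The AngII arrays were below all PBS arrays within each genotype. The difference was -0.34 ± 0.14 in WT (unadjusted p = 0.0328, adjusted p = 0.93, limma) and -0.31 ± 0.14 in KO (0.0446 and 0.892). The difference between those responses was 0.02 ± 0.20. The WT value was -0.18 without WT AngII 2, and the KO value was -0.26 against KO PBS 4 alone, the only KO PBS array with the same low spike-in level. The other bright Sdha probe set (mean 12.61) gave -0.16 ± 0.13 in WT and -0.01 ± 0.13 in KO, so the probe sets differed in KO.

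Atp5e, the epsilon subunit in the central stalk of ATP synthase, was the other gene whose AngII arrays lay below the PBS arrays in both genotypes. The share of all probe sets with this pattern was not computed. Atp5e read 12.60 and 12.64 in WT PBS, 12.27, 12.32 and 12.47 in WT AngII, 12.54, 12.76 and 12.40 in KO PBS, and 12.26 and 12.28 in KO AngII. The differences were -0.27 ± 0.11 in WT (unadjusted p = 0.0357, adjusted p = 0.93, limma) and -0.29 ± 0.11 in KO (0.0248 and 0.892). The WT value was -0.23 without WT AngII 2, and the KO value was -0.13 among arrays of low spike-in level. The catalytic-head subunits were closer to 0 in both genotypes, with Atp5a1 at -0.14 ± 0.08 and -0.04 ± 0.08 and Atp5b at -0.07 ± 0.07 and -0.0022 ± 0.07.

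Cox4i2 went the other way in wild-type hearts. Its values were 6.29 and 6.21 in WT PBS and 6.49, 6.50 and 6.97 in WT AngII, against 6.39, 6.35 and 6.33 in KO PBS and 6.27 and 6.44 in KO AngII. The WT AngII arrays were above every other array, with array 4 far above the other two. The difference was 0.40 ± 0.16 in WT (unadjusted p = 0.0308, adjusted p = 0.93, limma) and -0.0053 ± 0.16 in KO. The difference between these responses was -0.40 ± 0.23 (unadjusted p = 0.105, adjusted p = 1). Cox4i1, the isoform of most tissues, stood at -0.11 ± 0.07 in WT and 0.0019 ± 0.07 in KO. Among the other isoform pairs in WT, the muscle forms Cox6a2, Cox7a1 and Cox8b were at -0.07 ± 0.07, -0.14 ± 0.15 and -0.11 ± 0.10, and the ubiquitous forms Cox6a1, Cox7a2 and Cox8a at 0.03 ± 0.15, -0.12 ± 0.10 and 0.17 ± 0.15. Cox6b1 was at -0.05 ± 0.07 and its testis counterpart Cox6b2 at 0.12 ± 0.17. Without WT AngII 2 the muscle forms were at -0.011, 0.050 and -0.0088, so the direction of Cox7a1 turned, and Cox6a1, Cox7a2 and Cox8a were at 0.019, -0.027 and 0.092. No pair showed a difference in either isoform that passed the adjusted test. In complex III the gene with the smallest p was Uqcr11, a small subunit, at -0.16 ± 0.09 (unadjusted p = 0.0928).

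In PKCz-null hearts the genes were spread evenly around 0 under AngII. The difference from KO PBS was above 0 for 24 and below 0 for 27 of the 51, with a median of -0.0022, against -0.0089 for all genes. None was called (limma, 0% of all probe sets), 0 were higher at an unadjusted p under 0.05 (2.17% of all probe sets), and the 2 that were lower (2.4%) were Sdha and Atp5e. That count was 0 without KO AngII 3 (1.2%), KO AngII 4 (0.95%) or KO PBS 3 (0.893%). The groups did not overlap for 4 genes that were lower with AngII (7.84%, against 10.8% of all probe sets). For 2 that were higher the shares were 3.92% against 13.7%. Complex medians were -0.011, -0.046, 0.014 and 0.013 for II to V. With the spike-in level as a block, which here compares the KO AngII arrays with KO PBS 4 alone, they were -0.089, -0.059, 0.015 and -0.047. The largest higher value was that of Sdhaf2, which attaches FAD to Sdha, at 0.36 ± 0.18 (unadjusted p = 0.0691). It read 9.74, 9.86 and 10.34 in KO PBS and 10.20 and 10.48 in KO AngII. Its 3 highest values were on the arrays of low spike-in level, and the difference was 0.0036 with that level as a block. Cox6b2 (0.26 ± 0.17) and Cox8c (0.24 ± 0.15) followed. Cox8c was at 0.049 and Cox6b2 at 0.06 in the same block fit, and Uqcrb, a small subunit of complex III, was at 0.09 ± 0.06.

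Under PBS the genotypes differed little. The KO mean was above the WT mean for 39 of 51 genes, with a median of 0.040 against -0.0027 for all genes. Setting the array medians equal turned that median to -0.010, with 21 of 51 above 0, so its direction depends on the scaling. None was called (0.0133% of all probe sets were), and none had an unadjusted p under 0.05 in either direction (2.72% of all probe sets higher, 3.58% lower). The groups did not overlap for 9 genes that were higher in KO (17.6%, against 13.2% of all probe sets) and 1 that was lower (10.8%). The lower one was Sdhaf1, a factor that helps insert the iron-sulfur clusters of Sdhb. It read 9.26 and 9.50 in WT PBS and 9.05, 9.26 and 8.91 in KO PBS, a difference of -0.31 ± 0.15 (unadjusted p = 0.0634, adjusted p = 0.806, limma). Uqcr10, a small subunit of complex III, read 12.85 and 12.84 in WT PBS and 13.01, 13.04 and 12.97 in KO PBS, a difference of 0.16 ± 0.09 (unadjusted p = 0.109). Cox7b2 was at 0.15 ± 0.13, and in complex V Atp5k was at 0.11 ± 0.07 and Atp5g2 at 0.13 ± 0.11. The core subunits Sdha, Sdhb, Cyc1, Uqcrfs1, Cox4i1, Cox5a, Atp5a1 and Atp5b lay between -0.03 and 0.08. The 95% interval of the difference lay within 0.5 of 0 for 50 of the 51 genes.

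Under AngII the KO hearts had higher means for most of the genes. The difference was above 0 for 44 of 51, with a median of 0.099 against 0.0042 for all genes. By complex the subunit medians were 0.15, 0.099, 0.083 and 0.11 for II to V, and all 9 subunits of complex III and all 4 of complex II were above 0. No gene was called (limma, 0.0111% of all probe sets called). With arrays weighted by their spread around the fit, limma called 10 (6.46% of all probe sets). WT AngII 4 then had a weight of 7.21, against 0.652 for WT AngII 3 and 0.225 for WT AngII 2. At an unadjusted p under 0.05, 10 of the 51 (19.6%) were higher in KO, against 3.22% of all probe sets, and 0 were lower (3.28%). This count was 5 without WT AngII 2 (9.80%, against 3.26% of all probe sets) and 0 with the spike-in level as a block (0.848%). It was 2 without KO AngII 3 (1.43% of all probe sets), 3 without KO AngII 4 (1.55%) and 5 without WT AngII 4 (3.3%). The groups did not overlap for 18 genes that were higher in KO (35.3%), against 16% of all probe sets, and without WT AngII 2 for 19, against 23.6%.

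The median of 0.099 became 0.046 without WT AngII 2, with 39 of 51 genes above 0, and 0.16 without WT AngII 3. It was 0.054 with the spike-in level as a block, again with 39 above 0, and 0.042 with array medians set equal. Both KO AngII arrays had the low spike-in level and all WT arrays the high one, so within this comparison spike-in level and genotype cannot be told apart, and the block value rests on KO PBS 4 against KO PBS 2 and 3. Markers of other cells moved with this comparison. The 8 macrophage markers were all lower in KO AngII (median -0.40), as were 8 of 10 fibroblast and matrix markers (median -0.35) and 7 of 8 smooth muscle and pericyte markers (median -0.18), while 9 of 10 cardiomyocyte markers were higher (median 0.059). Without WT AngII 2, 6 of 8 macrophage markers (median 0.11) and 8 of 10 fibroblast and matrix markers (median 0.48) were higher. The smooth muscle and pericyte list and the cardiomyocyte list did not turn. In the former 5 of 8 markers were lower (median -0.15), and in the latter 8 of 10 were higher (median 0.030). The part of these markers in the result was not tested. With WT AngII 2 left out and the block together, the median was 0.013 and 26 of 51 genes were above 0.

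**Figure D3:**
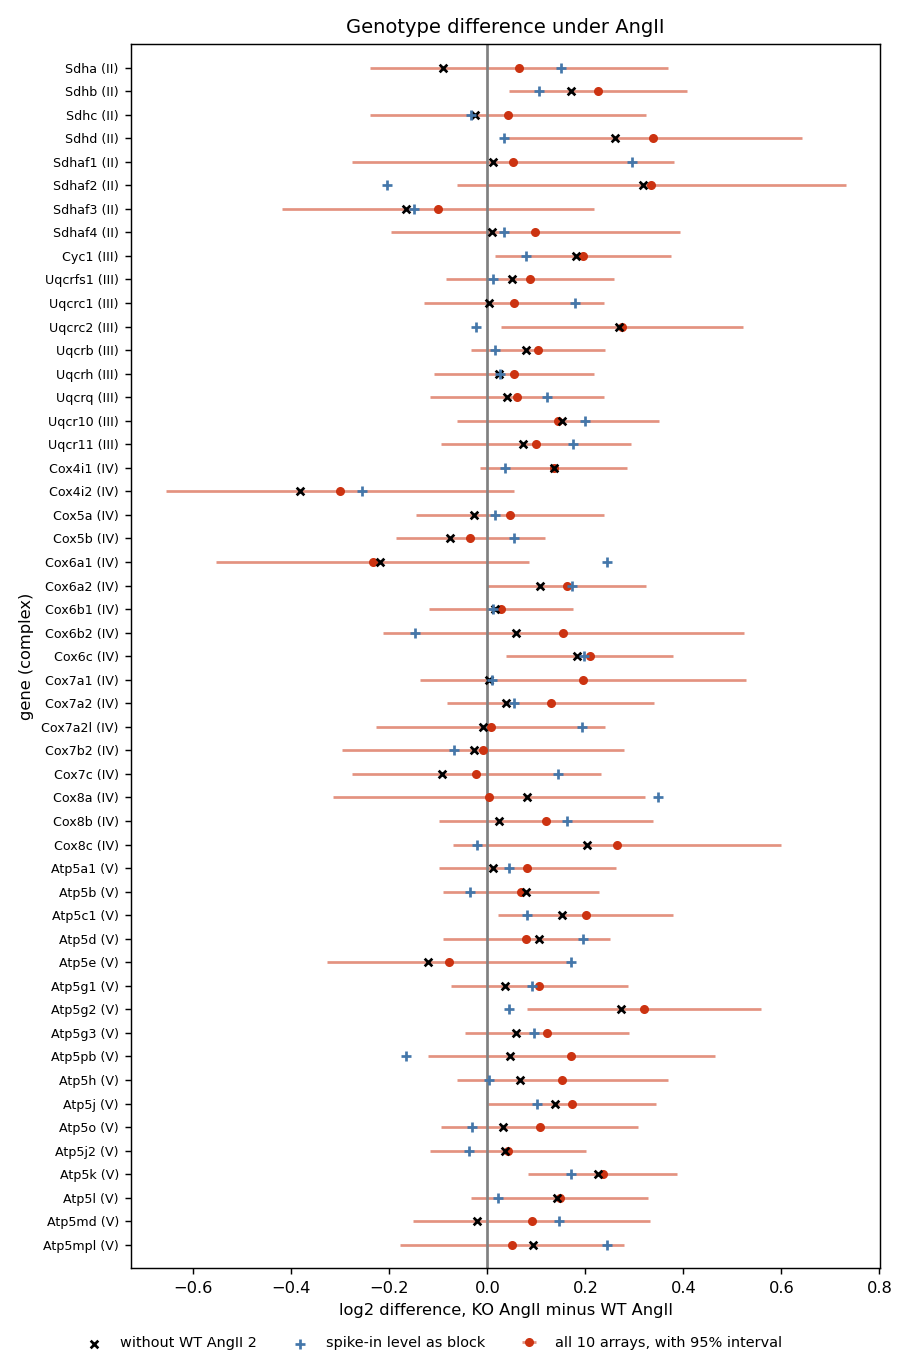
Difference between KO AngII and WT AngII (log2, x axis) for each of the 51 genes (y axis, by complex). Circles with bars give the fit over 10 arrays with its 95% interval, crosses the fit without WT AngII 2 and plus signs the fit with the spike-in level as a block. Of the circles 44 lie above 0, and the plus signs of Sdhd, Atp5g2 and Uqcrc2 lie near 0.

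Atp5k, the small membrane subunit e of ATP synthase, had the smallest p of these genes. It read 13.42, 13.49 and 13.41 in WT AngII and 13.68 and 13.67 in KO AngII, with 13.52 and 13.54 in WT PBS and 13.63, 13.61 and 13.69 in KO PBS. All 5 KO arrays were above all 5 WT arrays. The same held, by smaller margins, for Sdhb, Cox6c, Cox6a2 and Atp5j. The share of all probe sets with such a separation was not computed. The Atp5k difference under AngII was 0.24 ± 0.07 (1.18-fold, unadjusted p = 0.00586, adjusted p = 0.734, limma), 0.23 without WT AngII 2 and 0.17 with the spike-in level as a block. Averaged over PBS and AngII it was 0.17 ± 0.05 (unadjusted p = 0.00426, adjusted p = 0.288). The 2 other Atp5k probe sets gave 0.24 ± 0.08 and 0.21 ± 0.09 under AngII, and 0.22 and 0.13 without WT AngII 2. Under PBS they gave 0.09 ± 0.08 and 0.0031 ± 0.09, and averaged 0.16 ± 0.06 and 0.11 ± 0.07. On the second of them the genotypes overlapped, with WT PBS 5 at 13.21 and KO PBS 3 at 13.11.

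Sdhb read 13.32, 13.52 and 13.44 in WT AngII and 13.61 and 13.69 in KO AngII, a difference of 0.23 ± 0.08 (unadjusted p = 0.0191), which was 0.17 without WT AngII 2 and 0.10 with the block. Cox6c, a complex IV subunit common to all tissues, read 13.56, 13.74 and 13.54 in WT AngII and 13.87 and 13.77 in KO AngII, a difference of 0.21 ± 0.08 (unadjusted p = 0.0208), 0.18 and 0.20 in those fits. The other bright Cox6c probe set (mean 12.28) gave 0.10 ± 0.17, and -0.089 without WT AngII 2. For both genes the KO AngII arrays were above the WT AngII arrays and close to KO PBS, from which they differed by -0.01 ± 0.08 (Sdhb) and -0.0014 ± 0.08 (Cox6c).

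For another group of genes the difference was near 0 with the spike-in level as a block. Atp5g2, a gene for the c subunit of the rotor ring, read 12.65 and 12.62 in KO AngII and 12.62 in KO PBS 4, while the other 7 arrays lay between 12.22 and 12.40. Its difference under AngII was 0.32 ± 0.11 (unadjusted p = 0.0133) and 0.045 with the block. The genes for the same protein, Atp5g1 and Atp5g3, were at 0.11 and 0.12. Sdhd, a membrane anchor of complex II, read 12.25 and 12.36 in KO AngII, 12.03, 12.14 and 12.39 in KO PBS, 11.81, 11.99 and 12.10 in WT AngII and 12.25 and 11.94 in WT PBS. WT PBS 3, of high spike-in level, was level with KO AngII 3. Its difference of 0.34 ± 0.14 (unadjusted p = 0.0313) was 0.034 with the block. Uqcrc2, a core subunit of complex III, read 13.49 and 13.51 in KO AngII, 13.65 in KO PBS 4 and 13.21, 13.39 and 13.07 in WT AngII. Its difference of 0.28 ± 0.11 (unadjusted p = 0.0318) was -0.024 with the block, and its other bright probe set gave 0.14 ± 0.13. Sdhaf2 instead changed sign, from 0.33 ± 0.18 to -0.21 with the block. The part of the spike-in level in these values was not tested beyond these fits.

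The remaining genes with an unadjusted p under 0.05 were Cyc1 (0.20 ± 0.08), the gamma subunit Atp5c1 (0.20 ± 0.08), the stalk subunit Atp5j (0.17 ± 0.08) and Cox6a2 (0.16 ± 0.07). None of these was under 0.05 with the spike-in level as a block (limma, 0.848% of all probe sets higher). Cox4i2 had the largest lower value in complex IV, at -0.30 ± 0.16 (unadjusted p = 0.0889), and -0.38 without WT AngII 2. Among the other core subunits, Cox4i1 was at 0.14 ± 0.07, Uqcrfs1 at 0.09 ± 0.08, Atp5a1 at 0.08 ± 0.08, Atp5b and Sdha at 0.07 ± 0.07 and 0.06 ± 0.14, and Cox5a at 0.05 ± 0.09. Leaving out WT AngII 2 put Sdha at -0.090, Cox5a at -0.028 and Atp5a1 at 0.012. Of the isoform pairs, Cox6a1 was at -0.23 ± 0.15 (0.24 with the spike-in block, the opposite direction) and Cox7a1, Cox7a2, Cox8a and Cox8b were at 0.19 ± 0.15, 0.13 ± 0.10, 0.0037 ± 0.15 and 0.12 ± 0.10. Without WT AngII 2, Cox7a1 was at 0.0030, Cox7a2 at 0.038, Cox8a at 0.081 and Cox8b at 0.023. Cox6b1 and Cox6b2 were at 0.03 ± 0.07 and 0.15 ± 0.17, and at 0.015 and 0.058 without that array.

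**Figure D4:**
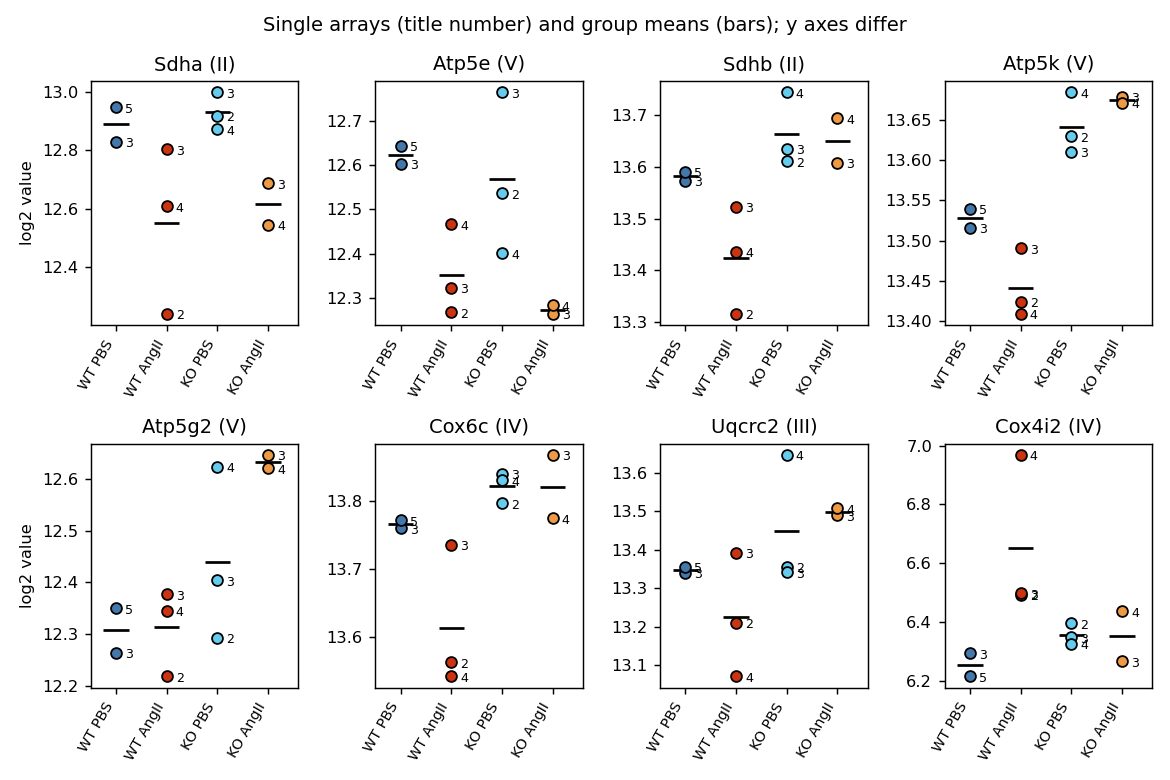
Log2 values (y axes, which differ between panels and do not start at 0) of 8 genes on single arrays (points, with title numbers) and group means (bars) in the 4 groups (x axis). Atp5k, and by smaller margins Sdhb and Cox6c, show all 5 KO arrays above all 5 WT arrays. Atp5g2 and Uqcrc2 show KO PBS 4 level with or above the KO AngII arrays.

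The response to AngII was not shown to differ between the genotypes for any of the genes. The interaction, the KO response minus the WT response, was above 0 for 39 of 51 with a median of 0.072 (all genes -0.0055). None was called (limma, 0% of all probe sets), and 0 had an unadjusted p under 0.05 in either direction (1.15% of all probe sets above 0, 0.482% below). Without WT AngII 2 the median was 0.028 with 30 of 51 above 0, and 1 gene, Cox4i2, was then below 0 at an unadjusted p under 0.05 (1.07% of all probe sets). The smallest p in each complex belonged to Sdhaf1 (0.36 ± 0.21), Uqcrb (0.14 ± 0.09), Cox4i2 and Atp5c1 (0.18 ± 0.12), and the largest values in complexes III and V to Uqcrc2 (0.18 ± 0.16) and the stalk subunit Atp5pb (0.20 ± 0.19). The 95% intervals of 37 of the 51 genes lay within 0.5 of 0.

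Averaged over both treatments, KO minus WT was above 0 for 44 of 51 genes with a median of 0.066 (all genes 0.0050), and 0.040 with 37 above 0 without WT AngII 2. None was called (0.0444% of all probe sets). At an unadjusted p under 0.05, 8 were higher (15.7%, against 5.86% of all probe sets) and 0 lower (6.54%), and the 8 were 0 with the spike-in level as a block (1.54%). The count was 7 without WT AngII 2 (13.7%, against 5.31% of all probe sets) and 2 without WT PBS 3 (5.28%). It was 3 to 5 without WT PBS 5 (2.9%) or KO PBS 3 (7.62%). Leaving out WT AngII 4, KO PBS 4, KO AngII 3 or KO AngII 4 also gave 3 to 5. The share of all probe sets is not printed here for those fits, and these counts are not set against it. Array weights called Atp5k alone (3.47%). The 8 included Atp5k, Atp5g2 (0.23 ± 0.08), Sdhb (0.15 ± 0.06), Cox6c (0.13 ± 0.06), Uqcrc2 (0.19 ± 0.08) and Sdhd (0.21 ± 0.10). In complex IV, Cox8c was at 0.19 ± 0.11 and Cox6a1 at -0.19 ± 0.10. The 95% intervals of all 51 genes lay within 0.5 of 0.

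Genes around the complexes, taken from lists, gave 0 called genes in any comparison (limma). In WT hearts under AngII, 34 of 36 complex I subunits were below 0 (median -0.13, 3 lower at an unadjusted p under 0.05, which 3.52% of all probe sets were), as were 13 of 13 tricarboxylic acid cycle genes (median -0.19, 2 lower), 28 of 29 assembly and cofactor delivery factors (median -0.12, 2 lower), 16 of 18 regulators of mitochondrial gene expression (median -0.24, 3 lower), 11 of 16 electron and phosphate partners (median -0.096, 1 lower) and 8 of 8 complex I assembly factors (median -0.14, 2 lower). Without WT AngII 2 these medians were -0.030, -0.090, -0.12, -0.25, -0.038 and -0.12. In KO hearts they were -0.026, -0.12, -0.12, -0.11, 0.022 and -0.15. The smallest p in each list in WT belonged to Ndufv1 (-0.34 ± 0.10), which holds the NADH site of complex I, Fh1 (fumarase, -0.30 ± 0.10), Lrpprc (-0.35 ± 0.14), which stabilises mitochondrial messenger RNA, Tfam (-0.38 ± 0.14), which packages and transcribes mitochondrial DNA, Etfb (-0.37 ± 0.14), which takes electrons from fatty acid oxidation, and Ndufaf4 (-0.54 ± 0.17), a complex I assembly factor. Between genotypes under AngII, 32 of 36 complex I subunits were above 0 (median 0.11, and 0.044 without WT AngII 2). The medians of the cycle genes, assembly factors, regulators and partners were 0.060, -0.041, -0.030 and 0.14, without WT AngII 2 -0.047, -0.078, 0.013 and 0.074, and with the spike-in block -0.030, 0.073, -0.039 and -0.037, so no list but the complex I subunits (0.075 with the block) kept its direction in all 3 fits. The complex I assembly factors were at 0.015, -0.018 and 0.087. The coactivator Ppargc1b had the smallest p among the regulators, at 0.52 ± 0.14 (unadjusted p = 0.00271, adjusted p = 0.734, limma), and 0.49 without WT AngII 2.

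Second probe sets gave a check on direction. Of 26 other probe sets with a mean of at least 10 log2, for 21 of the genes, 22 had the sign of the brightest one for WT AngII against WT PBS and 21 for KO against WT under AngII, but 15 for AngII in KO hearts and 13 for the genotypes under PBS. None was called in any comparison.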

How the data were processed

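Heart RNA from 10 mouse samples was measured on 1-colour arrays. The deposited table holds log2 values made by RMA, per the submitters' processing notes, and the sources used here give no other step. Of 45101 probe sets, 64 controls were left out and 45037 tested. In the platform annotation 34945 had 1 symbol, 932 several and 9160 none, and genes were named only from those with 1. All arrays entered 1 fit of 4 group means with limma 3.58.1 (R 4.3.3, lmFit and eBayes with trend), tested on simulated data. P-values were adjusted by the Benjamini-Hochberg method over all probe sets. Precision is limited by how few arrays there are. The genes, lists and tests were chosen with earlier results of these data known. In each comparison the genes named were those called, in each complex the gene with the smallest p and the one with the largest difference, the core subunits and the isoform pairs, and up to 3 genes of each other list. Genes shown beyond these, among them those with an unadjusted p under 0.05, were chosen after their values were seen. Alternatives covered scaling, array weights, blocks, choice of probe set and leaving out each array.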

Additional observations from a re-analysis of the deposited data

How the results depend on the processing

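Under 20 other settings, and 3 more chosen after seeing the data, 12 of 127 medians over the 51 genes moved by more than the spread between arrays. For AngII in WT the median was -0.028 with the title number as a replicate block, -0.028 without WT AngII 2 and with the spike-in level as a block, and -0.11 (without WT AngII 3) to -0.028 (without WT AngII 2) when each array was left out. For KO against WT under AngII it was 0.042 with equal array medians, 0.013 without WT AngII 2 and with the spike-in block, and 0.046 to 0.16 with an array left out. The interaction was 0.016 with quantile normalization repeated, 0.0017 with the replicate block, 0.0076 without WT AngII 2 and with the spike-in block, and 0.028 to 0.13 with an array left out. The averaged genotype difference was 0.013 with equal medians and 0.040 to 0.085 with an array left out. The ranges were -0.020 to 0.020 for AngII in KO and 0.016 to 0.060 for the genotypes under PBS. Array weights called 1 gene for AngII in WT (Cox4i2, adjusted p = 0.0492, limma, 0.582% of all probe sets), 10 for the genotypes under AngII (smallest adjusted p = 0.0138, 6.46%) and 1 averaged (Atp5k, 0.0349, 3.47%), with weights of 7.21 for WT AngII 4 and 0.225 for WT AngII 2; the cause was not tested. Same-numbered arrays correlated at -0.355 to 0.103, so the numbers were not taken as a pairing, and the block called 0 genes. Of 2730 values for named genes, 226 changed sign. Fits on the compared arrays alone give no separate interaction or average, and arrays of 1 spike-in level cannot give every comparison.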
